A study of Danio rerio with 6 samples.

Results

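The red cell membrane and skeleton genes described here are slc4a1a, sptb, epb41b, ank1a, rhag, xk, hdr and add2. They were taken by symbol from a table of gene levels in FPKM, a unit that corrects fragment numbers for the length of the gene and the size of the library. The 8 symbols matched 9 of the 38157 gene models in the table, because ank1a names a pair of overlapping models. All 9 models passed the filter on low values, which asked for 0.5 FPKM or more on average.

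RNA-seq was made from poly-A selected RNA of zebrafish tails, including blood-forming tissue, at 3 days post fertilisation. One genotype was a sirt6 mutant line made with CRISPR/Cas9, and the other was wild type, with 3 libraries each. The study asked how loss of sirt6, which encodes a NAD-dependent deacylase of histones, affects gene expression. Larvae were assigned to a genotype by genotyping. The sources used here give neither the lesion nor the zygosity nor the number of larvae per library. They also do not say whether libraries of 1 genotype came from separate pools, so the spread behind the p-values may be technical.

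The red cell membrane is held up by a meshwork of spectrin that lies under the lipid bilayer. Ankyrin ties this meshwork to the anion exchanger band 3, and protein 4.1 and adducin tie it to short actin filaments. In zebrafish, mutants of band 3, beta spectrin and protein 4.1 are known for anaemia, and in humans inherited defects of the same proteins give fragile red cells of abnormal shape. The Rh-associated glycoprotein and XK sit in the membrane itself. The gene hdr is set apart from the others, since it encodes a receptor of the tumour necrosis factor receptor family with a death domain, named for its expression in blood-forming tissue, and is no part of the skeleton.

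The libraries held 12438359 to 14655293 reads in genes, as recovered from the FPKM values. They did not group by genotype alone. On recovered reads, mutant libraries 1 and 3 differed by a chi-square of 3.54 per degree of freedom and wild-type libraries 2 and 3 by 2.91, while the other 13 pairs of libraries lay between 16.0 and 40.4. Mutant library 2 and wild-type library 1 thus stood apart from their own groups. The targeted gene sirt6 had 3.52, 3.39 and 3.04 FPKM in mutants and 5.85, 3.25 and 2.44 FPKM in wild type, which does not check the labels while the lesion is unknown. With limma, 0 of 23855 genes passed at an adjusted p of 0.05, a background of 0%, and 1368 had an unadjusted p under 0.05. With limma voom on recovered reads 0 passed as well.

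Red cell markers were listed at levels below that of a muscle actin gene. The summed level of 8 globin gene models was 971 to 1471 FPKM in mutants and 814 to 1467 FPKM in wild type, against 11470 to 15163 FPKM in mutants and 12341 to 14414 FPKM in wild type for the muscle actin gene actc1b alone. The erythroid transcription factor gene gata1a averaged 0.259 FPKM in mutants and 0.446 FPKM in wild type. The erythroid heme synthesis gene alas2 was listed at 0 in all libraries on chromosome 8. A gene model without a symbol on an alternate contig of that region, whose best protein match is the same enzyme, had 2.37, 4.08 and 2.37 FPKM in mutants and 4.02, 2.99 and 2.85 FPKM in wild type. Reads of such regions can be split between copies, so a marker at 0 does not show that the transcript was lacking. Models on alternate contigs were not looked for among the globins, so their sum may be too low. No red cell membrane gene shared a best protein match with a model on an alternate contig, and the short ank1a model is listed without a protein match.

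The red cell membrane genes spanned a wide range of levels and kept nearly the same order in every library. By mean level, rhag came first, followed by slc4a1a, sptb, the short ank1a model, add2 and hdr, while epb41b came last. Of these, add2 and hdr overlapped in wild type alone. These FPKM values are per length, so genes can be compared. The gene rhag made up 59.3% to 64.5% of the summed FPKM of the 9 models in mutants and 58.3% to 65.0% in wild type. Neighbours in the order overlapped in both genotypes only for sptb and the short ank1a model, with 9.97 to 15.8 against 10.4 to 12.6 FPKM in mutants and 12.1 to 13.5 against 11.5 to 12.9 FPKM in wild type. The low end of the order was less settled, since xk averaged above the long ank1a model in mutants, where the 2 overlapped, and below it in wild type, where xk overlapped epb41b.

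**Figure D1:**
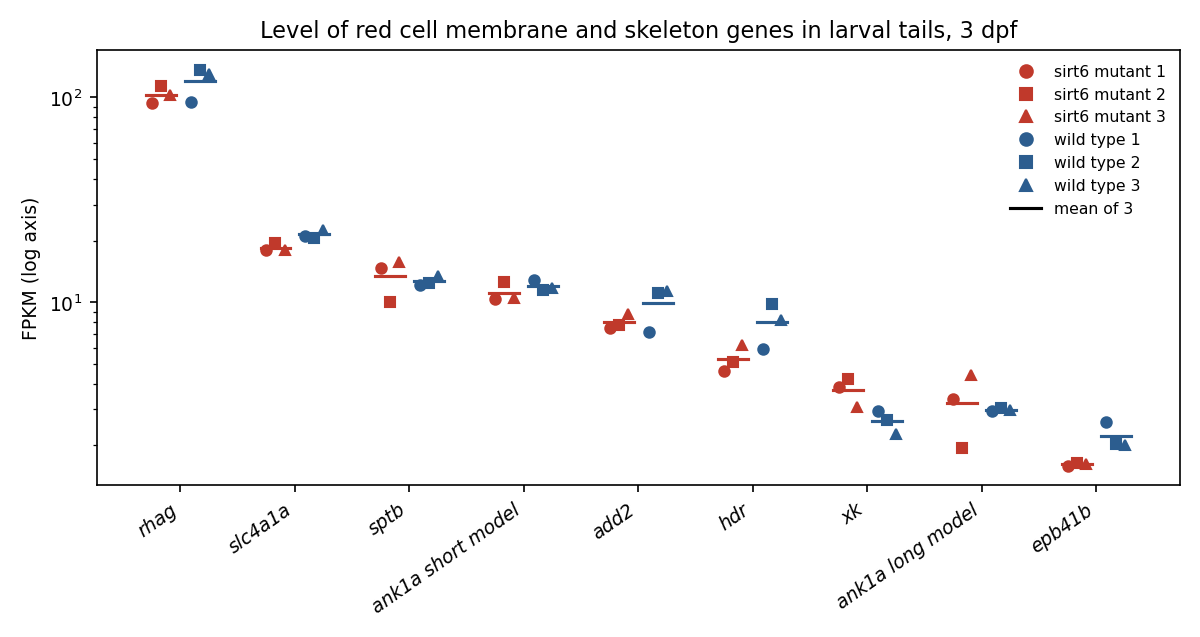
Level of each gene model in FPKM on a log axis, with mutant libraries in red to the left and wild-type libraries in blue to the right, and bars for the mean of 3 libraries. The gene rhag stands above 90 FPKM in every library, and slc4a1a, epb41b and xk are the models whose genotypes do not overlap.

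None of the red cell membrane genes passed the test between sirt6 mutant and wild-type tails. Among the 9 models 6 had a lower mean in mutants and 3 a higher one, where 50% of all genes tested had a lower mean. Their median log2 fold change, taken as mutant minus wild type on the scale log2(FPKM + 0.5), was -0.20, against 0.00024 for all genes tested. Without mutant library 1 their median was -0.13. The libraries of the genotypes were apart for slc4a1a and epb41b, both lower in mutants, and for xk, higher in mutants. Over all genes tested, 5.4% were apart with mutants lower and 5.16% with mutants higher. Since none of the 9 models passed, a lower level in mutants is not established. In bulk tails a lower value could not tell fewer red cells from less RNA per red cell.

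**Figure D2:**
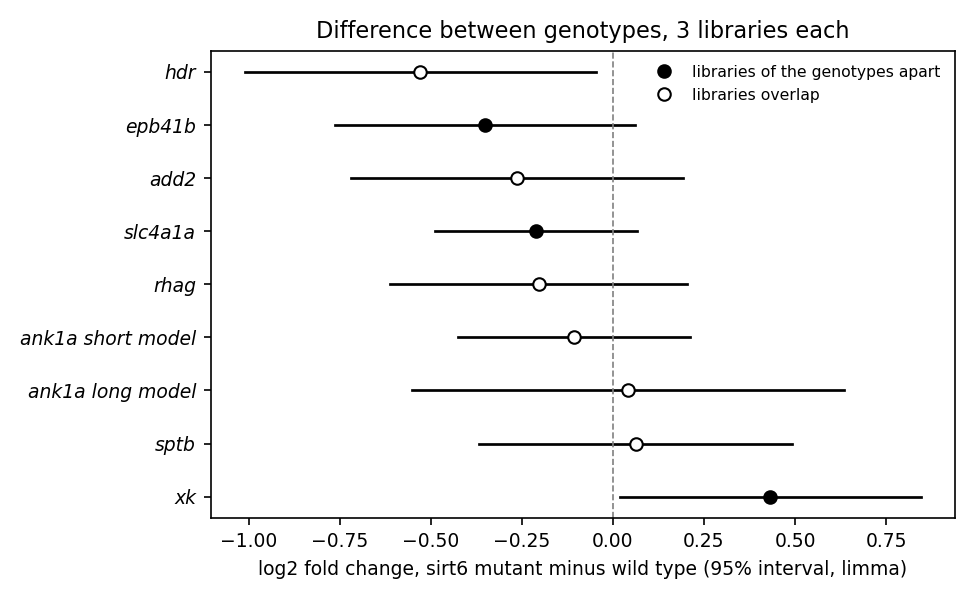
Log2 fold change of each gene model, mutant minus wild type, with its 95% interval from limma. Filled points mark models whose libraries are apart between genotypes, and the intervals of xk and hdr are the ones that leave out 0 before adjustment.

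Among the membrane transporters, slc4a1a was lower in each mutant library than in each wild-type library, with the smallest standard error of the 9 models, 0.12 on the log2 scale. The gene (ENSDARG00000012881, GRCz11 chromosome 3, 20065861 to 20092124) encodes band 3, which exchanges chloride for bicarbonate and anchors the skeleton. It had 18.0, 19.4 and 18.0 FPKM in mutant libraries 1, 2 and 3, against 21.1, 20.6 and 22.6 FPKM in wild-type libraries 1, 2 and 3. Each mutant library lay below each wild-type library, with means of 18.5 ± 0.849 and 21.5 ± 1.06 FPKM (SD, n = 3 each). Its log2 fold change was -0.21 (95% interval -0.49 to 0.07, limma adjusted p = 0.91). Each library held 851 to 1052 reads of slc4a1a, a counting error of 3.08% to 3.43%. The gap between the genotypes, from mutant library 2 to wild-type library 2, rests on 942 against 1012 reads.

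The level of rhag depended on which wild-type library was read. This gene (ENSDARG00000019253, chromosome 20, 14014813 to 14054083) encodes the Rh-associated glycoprotein, an ammonium channel of the red cell membrane. It had 93.4, 114 and 103 FPKM in mutants and 94.5, 136 and 130 FPKM in wild type. Wild-type library 1 lay among the mutants, while wild-type libraries 2 and 3 lay above all of them. For rhag the log2 fold change was -0.20 (95% interval -0.61 to 0.20, limma adjusted p = 0.93), with -0.37 without wild-type library 1, -0.11 without wild-type library 2 and -0.13 without mutant library 1. With 4597 to 6957 reads per library, the counting error of 1.2% to 1.47% was far below the spread of 9.75% between mutant and 18.7% between wild-type libraries.

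Of the skeleton genes, epb41b was lower in each mutant library than in each wild-type library. It encodes protein 4.1 (ENSDARG00000029019, chromosome 16, 26449615 to 26488169), which strengthens the contact of spectrin with actin. Its level was 1.59, 1.64 and 1.62 FPKM in mutants, against 2.60, 2.03 and 2.0 FPKM in wild type. Means were 1.62 ± 0.0209 and 2.21 ± 0.34 FPKM (SD, n = 3 each), with a log2 fold change of -0.35 and an interval of -0.76 to 0.06 (limma adjusted p = 0.892). Mutant libraries varied by 1.3% and held 117, 123 and 132 reads. This spread is below counting error alone, which is 7.05% to 9.25% for the 117 to 201 reads of all 6 libraries. The closeness of the mutant values is thus finer than the depth could resolve. The gap between the genotypes, from mutant library 2 to wild-type library 3, rests on 123 against 141 reads.

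Spectrin and the long ankyrin model followed each other across libraries and differed more among mutants than between genotypes. The gene sptb (ENSDARG00000030490, chromosome 17, 38566717 to 38599022) encodes beta spectrin, the rod-like protein of the meshwork. It had 14.7, 9.97 and 15.8 FPKM in mutants and 12.1, 12.4 and 13.5 FPKM in wild type. Mutant library 2 was the lowest and mutant library 3 the highest of all, with wild type in between. The difference came to a log2 fold change of 0.06 (95% interval -0.37 to 0.49, limma adjusted p = 0.98). It was -0.01 without mutant library 1, -0.06 without mutant library 3 and 0.26 without mutant library 2, so its direction depends on single libraries.

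The symbol ank1a, for ankyrin-1, which joins band 3 to beta spectrin, covers a long model (ENSDARG00000059093, chromosome 5, 68899473 to 69041102, with a gene length of 7540 bases) and a short model inside it on the same strand (ENSDARG00000092143, 68900506 to 68927728, 3587 bases). The sources used here do not say how the counting treated reads in the shared stretch of 27223 bases, so the values of either model are uncertain. The long model had 3.36, 1.94 and 4.41 FPKM in mutants and 2.94, 3.05 and 2.97 FPKM in wild type. The short model had 10.4, 12.6 and 10.4 FPKM in mutants and 12.9, 11.5 and 11.7 FPKM in wild type. Mutant library 2 was thus lowest in the long model and highest of the mutants in the short one.

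The ratio of the short to the long ank1a model was 3.10, 6.49 and 2.37 in mutants and 4.37, 3.75 and 3.94 in wild type. Log2 fold changes were 0.04 for the long model, with an interval of -0.55 to 0.63, and -0.11 for the short one, with an interval of -0.43 to 0.21 (limma adjusted p = 0.99 and 0.954). For the long model it was -0.18 without mutant library 3, -0.01 without mutant library 1 and 0.32 without mutant library 2. For the short model the value was -0.06 without mutant library 1, mutant library 3 or wild-type library 1, and -0.19 without mutant library 2. Reads of both models together numbered 834, 813 and 1046 in mutants and 955, 886 and 822 in wild type. The same libraries held 12788974, 14314865 and 13970013 reads in genes in mutants and 14655293, 13544132 and 12438359 in wild type. The summed ank1a reads are not corrected for this, so their ranges do not compare levels. In mammals the ankyrin-1 gene also gives a small muscle isoform, and which transcripts the short model collects was not analysed here.

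Long genes as a class varied between libraries in part as sptb and the long ank1a model did. The 535 tested genes of 7000 to 8000 bases had median deviations from their mean of 0.06, -0.15 and 0.12 in mutants 1, 2 and 3 and of -0.14, 0.06 and 0.08 in wild type 1, 2 and 3. Deviations of the long ank1a model were 0.13, -0.54 and 0.47 in mutants and lay between -0.04 and 0.01 in wild type. Its mutant libraries therefore ran in the order of long genes, with a wider range, and its wild-type libraries did not show the low value of library 1. The part of length in these values was not tested. Mutant library 2 was the lowest of the libraries for 21.5% of all genes tested.

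The gene add2 (ENSDARG00000074581, chromosome 5, 13781968 to 13835556) encodes beta adducin, which caps actin filaments at the corners of the meshwork and in mammals is also made in neurons. It had 7.49, 7.77 and 8.72 FPKM in mutants and 7.13, 11.1 and 11.4 FPKM in wild type. Wild-type library 1 was the lowest of all. As for rhag, wild-type libraries 2 and 3 were above every mutant. Its log2 fold change was -0.26 (95% interval -0.72 to 0.19, limma adjusted p = 0.928), and it was -0.47 without wild-type library 1, -0.17 without wild-type library 2 and -0.15 without wild-type library 3. The summed level of 7 neuronal markers was 465, 520 and 460 FPKM in mutants and 531, 550 and 550 FPKM in wild type. Of these markers 6 of 7 had lower means in mutants, with 0 passing and a median of -0.12. Lower means were found for 4 of 7 with quantile normalization or without mutant library 1. Without mutant library 2 or 3, or wild-type library 1 or 3, it was 5 of 7. With library weights 2 passed as lower and 1 as higher, where 10.7% and 9.62% of all genes tested did. With mutant library 2 and wild-type library 1 left out the counts were 3 and 1, where 9.42% and 9.15% did. The part of neurons in the add2 values was not tested.

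The gene xk stood on the other side, higher in each mutant library. It encodes the XK protein (ENSDARG00000056618, chromosome 11, 29818389 to 29833698), which in humans pairs with the Kell blood group protein. Its level was 3.85, 4.20 and 3.09 FPKM in mutants and 2.93, 2.66 and 2.26 FPKM in wild type. The gap between the lowest mutant and the highest wild-type library was that of 76 against 68 reads, which is within counting error. For xk the log2 fold change was 0.43 (95% interval 0.02 to 0.85) with an unadjusted limma p of 0.0426, which did not pass (limma adjusted p = 0.867). Of all genes tested, 2.45% were higher in mutants at an unadjusted limma p under 0.05.

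Reads of xk may include those of a neighbour. Its model shares 478 bases with that of cybb, a subunit gene of the phagocyte oxidase, on the same strand. The gene cybb had 1.12, 1.46 and 1.45 FPKM in mutants and 1.23, 2.16 and 1.72 FPKM in wild type, with a log2 fold change of -0.24. These values are for the whole cybb model, and the part of its reads in the xk values was not tested. Of 9 gene models of neutrophil markers 7 were tested, and all 7 had higher means in mutants (6 of 7 without mutant library 3 or wild-type library 3), with 0 passing, a median of 0.46 and a smallest limma adjusted p of 0.183. With library weights 4 of 7 passed as higher, where 9.62% of all genes tested did. With mutant library 2 and wild-type library 1 left out 3 of 7 did, where 9.15% of all genes did. The genotypes were apart as higher for 4 of 7, where 5.16% of all genes tested were. The sum of the 9 neutrophil models was 77.2 to 86.6 FPKM in mutants and 45.3 to 52.1 FPKM in wild type. The other 2, lyz at 0.28 FPKM in mutants and 0.597 FPKM in wild type and cxcr1 at 0.0521 and 0.0602 FPKM, were below the filter. Of 6 tested macrophage markers, 5 had lower means in mutants, with 0 passing and a median of -0.23. The sum of the 10 macrophage markers was 12.4 to 16.0 FPKM in mutants and 16.4 to 19.4 FPKM in wild type. Only 3 of the 6 were lower without wild-type library 1 (median -0.10), and 2 of 6 without that library and mutant library 2 (median 0.12). In that last fit 1 of 6, mrc1b, passed as lower, where 9.42% of all genes tested did. It also passed as lower with library weights, where 10.7% of all genes did. The part of either cell type in the values of xk was not tested. The Kell gene kel averaged 0.325 FPKM in mutants and 0.492 FPKM in wild type and was below the filter.

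The death receptor gene hdr (ENSDARG00000004392, chromosome 5, 27404946 to 27415081) had the lowest fold change of the group. It had 4.61, 5.08 and 6.19 FPKM in mutants and 5.90, 9.84 and 8.17 FPKM in wild type. Wild-type library 1 lay between mutant libraries 2 and 3, so the genotypes overlapped. For hdr the log2 fold change was -0.53 (95% interval -1.01 to -0.05) with an unadjusted limma p of 0.0351, which did not pass (limma adjusted p = 0.839). Of all genes tested, 3.28% were lower in mutants at an unadjusted limma p under 0.05. A gene on the other strand, BX323062.1, overlaps hdr by 312 bases and held 0 to 4 reads.

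Fits that leave out or give little weight to wild-type library 1 and mutant library 2 called some of the genes. Without these libraries rhag, add2 and hdr passed as lower, with log2 fold changes of -0.44, -0.45 and -0.70 (limma adjusted p = 0.0134, 0.0336 and 0.0399), that is 3 of 9 models, where 9.42% of all genes tested passed as lower and 9.15% as higher. With library weights rhag, add2 and hdr passed as lower at -0.44, -0.47 and -0.78 (limma adjusted p = 0.0205, 0.027 and 0.0156) and xk as higher at 0.46 (limma adjusted p = 0.0396), against 10.7% of all genes tested as lower and 9.62% as higher. Only the close pairs of libraries remain in the first of these fits, where genotype and pair cannot be told apart. The second fit gave its lowest weights, 0.223 and 0.263, to the same 2 libraries.

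Across libraries the genes fell into different patterns. Deviations of rhag, add2 and hdr were high in wild-type libraries 2 and 3 and low in wild-type library 1, at -0.22, -0.28 and -0.11. Those of slc4a1a, epb41b and the short ank1a model were instead positive in wild-type library 1, at 0.09, 0.38 and 0.15. The pair sptb and long ank1a model differed by a root mean square of 0.12 on the log2 scale over the 6 libraries, and rhag and add2 by 0.11. The closest pair was slc4a1a and the short ank1a model, at 0.10, and the farthest was xk and hdr, at 0.59. These are descriptions over 6 libraries that share depth and tissue makeup with all other genes.

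**Figure D3:**
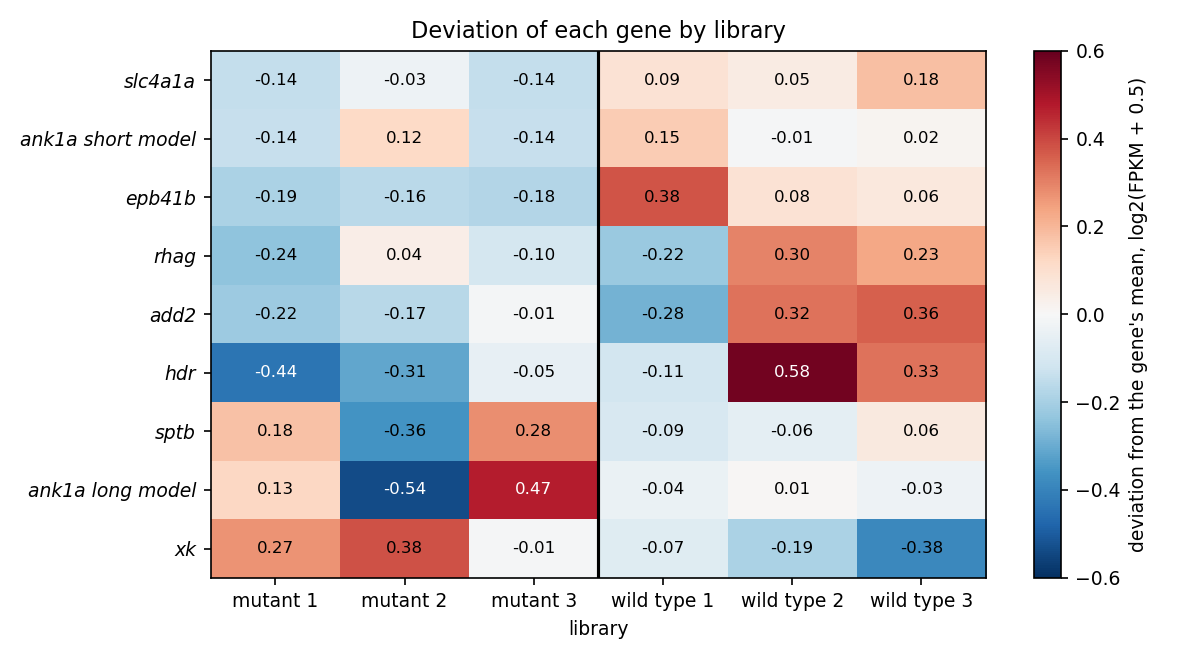
Deviation of each gene model from its own mean over the 6 libraries, in log2(FPKM + 0.5), with mutants in the 3 columns to the left and wild type in the 3 to the right. The block of rhag, add2 and hdr is high in wild-type libraries 2 and 3, and sptb and the long ank1a model are low in mutant library 2.

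The profile most like the median of the 9 models was that of cntn1b, a gene of a neuronal adhesion protein, followed by sept9a, mdm4, ip6k1 and igfn1.3. They were the nearest of 14137 candidate genes by root mean square difference over 6 libraries, at 0.0562, 0.0568, 0.0573, 0.058 and 0.0586 on the log2 scale. The gene cntn1b had 6.16, 5.89 and 6.63 FPKM in mutants and 6.36, 7.17 and 6.95 FPKM in wild type. None of these 5 is a red cell marker on the list used here. That list holds 22 symbols, few beside 14137 candidates, and the median profile ran only from -0.16 to 0.06. The absence of such a marker thus does not tell which cells the RNA came from. The nearest to xk were f7l, otpa and plekho1a, at 0.0545, 0.07 and 0.0726.

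Other genes of the red cell membrane lay on both sides. Of 28 further symbols on the wider list, 25 matched the table and 22 were tested, of which 10 had higher and 12 lower means in mutants, with 0 passing and a median log2 fold change of -0.02. Single libraries and scaling turned this balance, with 14 of 22 higher without mutant library 2 (median 0.10), 8 without mutant library 1 (median -0.08), 9 without mutant library 3 (median -0.08), 12 without wild-type library 3 (median 0.04) and 12 with quantile normalization (median 0.01). With library weights 3 of 22 passed as higher and 1 as lower, and with mutant library 2 and wild-type library 1 left out the counts were 4 and 2, against the shares of all genes given above for these fits. The unmatched symbols were not analysed here. The libraries were apart for bcam, a laminin-binding blood group protein gene, at 22.7, 16.9 and 24.4 FPKM in mutants and 16.1, 16.8 and 16.4 FPKM in wild type. They were also apart for tmod1, which encodes the tropomodulin that caps actin filaments at their pointed ends, at 6.83, 5.86 and 5.98 FPKM in mutants and 5.42, 4.92 and 4.51 FPKM in wild type. Both were higher in mutants and did not pass (limma adjusted p = 0.868 and 0.892). Of the 22 tested, 2 were thus apart as higher and 0 as lower, where 5.16% and 5.4% of all genes tested were. The nearest libraries of the genotypes held 512 and 515 reads of bcam and 101 and 96 reads of tmod1, gaps within counting error. The glycophorin C gene gypc averaged 5.90 ± 0.41 FPKM in mutants and 7.28 ± 2.26 FPKM in wild type (SD, n = 3 each), with overlapping libraries.

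Taken as a share of other red cell markers, slc4a1a no longer had its genotypes apart, through mutant library 2 alone. The summed level of 15 red cell markers other than globins was 113, 112 and 111 FPKM in mutants and 123, 120 and 117 FPKM in wild type. Of 13 tested, 5 had higher and 8 lower means in mutants, with 0 passing and a median of -0.08, and klf17 was apart as higher. With library weights 1 of 13 passed as higher and 1 as lower, where 9.62% and 10.7% of all genes tested did. The counts were again 1 and 1 with mutant library 2 and wild-type library 1 left out, where 9.15% and 9.42% did. The marker alas2 adds 0 to the sum of the 15 markers, whose libraries were themselves apart, lower in mutants. On average gata1a adds 0.259 FPKM in mutants and 0.446 FPKM in wild type, and cahz 27.5 and 29.3 FPKM. Whether red cells alone make these markers was not tested, so a share of the sum is not a level per red cell. The level of slc4a1a came to 16.0%, 17.4% and 16.2% of this sum in mutants and 17.2%, 17.1% and 19.4% in wild type, which overlap. That of epb41b came to 1.42%, 1.46% and 1.46% in mutants and 2.12%, 1.69% and 1.71% in wild type, which do not. For xk the values were 3.42%, 3.75% and 2.80% in mutants and 2.39%, 2.21% and 1.94% in wild type, again apart. Globins lay the other way on average, with 5 of 8 gene models higher in mutants, 0 passing and a median log2 fold change of 0.25, and their sums overlapped. That median was 0.08 without mutant library 2, 0.14 without wild-type library 2, 0.10 without wild-type library 3 and 0.52 without wild-type library 1. All 8 globin models are shorter than 1000 bases. The 3468 tested genes of such length had a median deviation of 0.19 in wild-type library 1 and of -0.06 to 0.03 in the others. The part of length in the globin values was not tested. Globins passed as higher for 3 of 8 models with library weights, where 9.62% of all genes tested did. Without wild-type library 1 and mutant library 2 they did so for 5 of 8, where 9.15% of all genes did. That fit keeps only the close pairs of libraries, where genotype and pair cannot be told apart.

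Set beside their families, rhag shared its direction with all other Rh genes tested. The ammonium transporter genes rhbg, rhcga, rhcgb and rhcgl1, known in zebrafish from gill and skin, and rhd all had lower means in mutants, with 0 passing and a median of -0.40 over the 5. These 5 genes were lower in every alternative that tested them, under each scaling and without any 1 library. Both rhbg and rhcgl1 passed as lower with library weights, where 10.7% of all genes did, and with mutant library 2 and wild-type library 1 left out, where 9.42% did. The gene rhbg had 92.6, 88.4 and 92.1 FPKM in mutants and 94.0, 131 and 142 FPKM in wild type, and rhcgb had 9.51, 8.72 and 8.82 FPKM in mutants and 14.4, 11.8 and 10.3 FPKM in wild type. Genotypes were apart for these 2 and overlapped for the other 3, where 5.4% of all genes tested were apart as lower (limma adjusted p = 0.868 for rhbg and 0.838 for rhcgb). The sum of 6 markers of skin ionocytes, cells that carry such transporters, was 202 to 218 FPKM in mutants and 183 to 213 FPKM in wild type, most of it from atp1a1a.1, which averaged 171 FPKM in mutants and 166 FPKM in wild type. Of 5 tested, 3 had higher and 2 lower means in mutants, with 0 passing. It was 2 of 5 higher without wild-type library 1, and 4 of 5 without mutant library 1 or 3 or wild-type library 2. With library weights 1 of 5, foxi3a, passed as higher, where 9.62% of all genes tested did. With mutant library 2 and wild-type library 1 left out foxi3a passed again, where 9.15% did. The part of ionocytes in the Rh values was not tested.

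Spectrins outside the red cell lay on the higher side. All 6 tested models of the spectrin family had higher means in mutants, with 0 passing and a median of 0.26, and all 6 were also higher under each other scaling. Without mutant library 1 only 3 of 6 were higher (median 0.05), and without mutant library 3 or wild-type library 2 there were 4 of 6 (medians 0.10 and 0.12). The median was 0.49 without mutant library 2. With library weights 4 of 6 passed as higher (median 0.47), where 9.62% of all genes did. Likewise 4 of 6 passed with mutant library 2 and wild-type library 1 left out (median 0.54), where 9.15% did. The alpha spectrin gene of other tissues, sptan1, had 62.7, 51.6 and 63.3 FPKM in mutants and 51.6, 46.1 and 46.2 FPKM in wild type, so mutant library 2 barely exceeded wild-type library 1 (limma adjusted p = 0.871). The beta spectrin gene sptbn1, which shares its best protein match with sptb, had 41.1, 18.0 and 39.3 FPKM in mutants and 31.4, 20.6 and 21.9 FPKM in wild type. Like sptb, sptbn1 was lowest in mutant library 2.

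For the other families the red cell gene and its relatives had no common side. The adducin gene add1 averaged 26.6 ± 8.56 FPKM in mutants and 19.1 ± 5.45 FPKM in wild type (SD, n = 3 each), a log2 fold change of 0.44 against -0.26 for add2. The second protein 4.1 gene, epb41a, had 13.7, 4.27 and 14.3 FPKM in mutants and 11.0, 9.85 and 8.72 FPKM in wild type, above epb41b in each library and again lowest in mutant library 2. The second band 3 gene, slc4a1b, averaged 3.11 ± 0.351 FPKM in mutants and 3.62 ± 0.812 FPKM in wild type (SD, n = 3 each). Of 7 tested relatives of xk, 4 were higher and 3 lower in mutants, with a median of 0.07, and 3 of 7 were higher without mutant library 1, 2 or 3 or wild-type library 3 (medians -0.03 to -0.01). Over all these families, the tumour necrosis factor receptors related to hdr included, 0 of 40 tested models passed with all libraries at equal weight. With library weights 7 of 40 passed as higher and 2 as lower, where 9.62% and 10.7% of all genes tested did. With mutant library 2 and wild-type library 1 left out the counts were 10 and 2, where 9.15% and 9.42% did. Among these, add1 passed as higher in both fits and epb41a in the second.

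**Figure D4:**
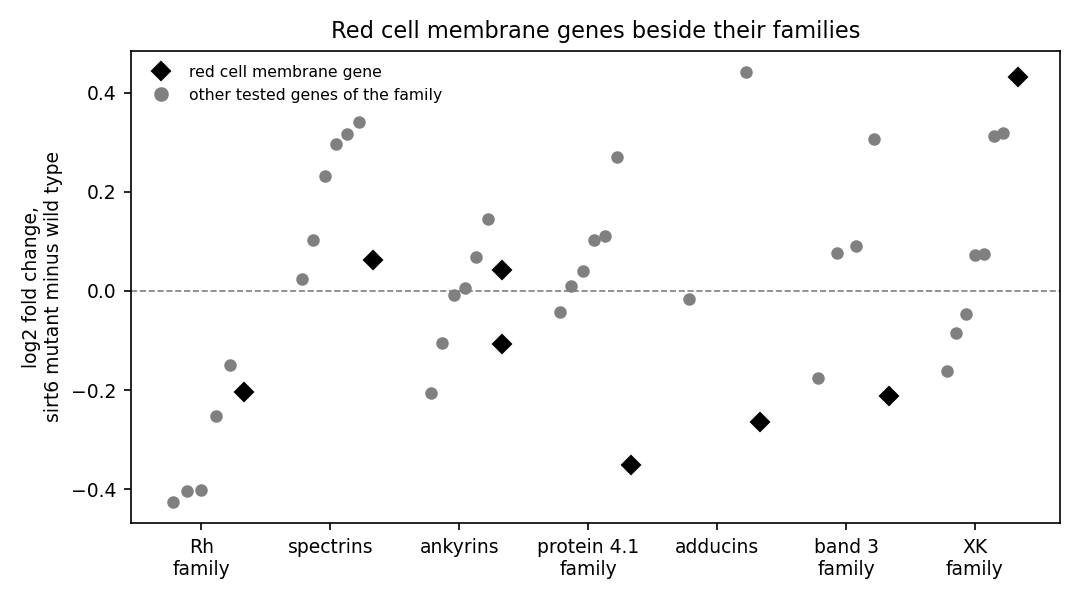
Log2 fold change, mutant minus wild type, of each red cell membrane gene (black diamonds) beside the other tested genes of its family (grey points). Rh genes all lie below 0 and the spectrins above 0, which no longer holds for all spectrins without mutant library 1, mutant library 3 or wild-type library 2, and with all libraries at equal weight none of these genes passed limma.

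Genes that act with death receptors lay on both sides. Of 7 tested, including fadd, casp8 and the ligand gene tnfsf10, 4 had higher and 3 lower means in mutants, with 0 passing and a median of 0.14. The median was 0.01 without mutant library 2, 0.05 without mutant library 3 and 0.02 without wild-type library 3. With mutant library 2 and wild-type library 1 left out, 3 were higher and 4 lower, with 0 passing and a median of -0.0019. With library weights 1 of 7, cflara, passed as lower, where 10.7% of all genes tested did.

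**Figure D5:**
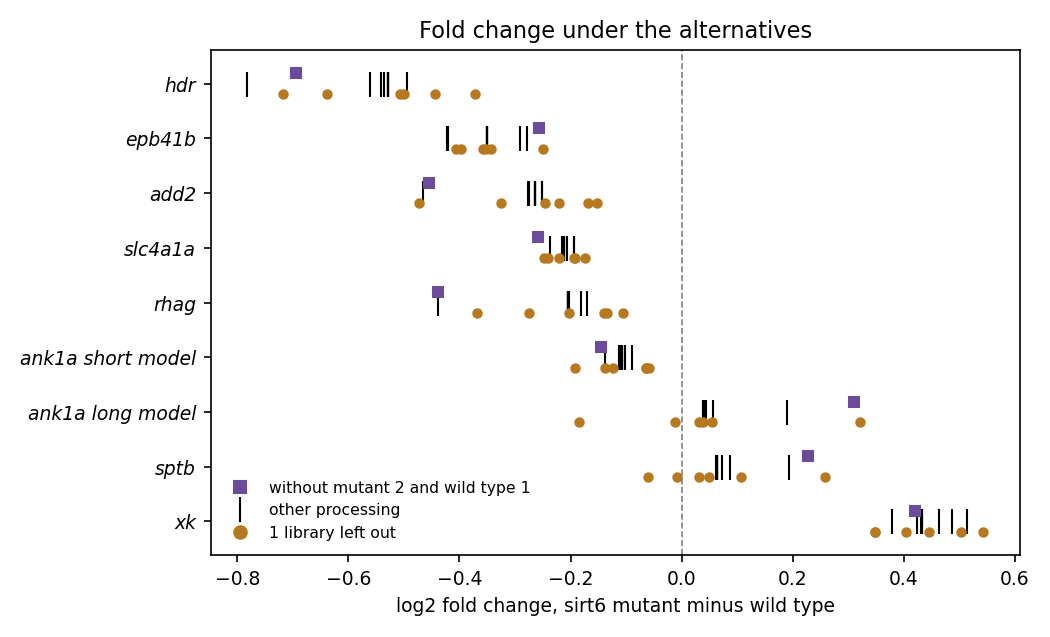
Log2 fold change of each gene model, mutant minus wild type, under the alternatives: 1 library left out (circles), mutant library 2 and wild-type library 1 left out together (squares) and other processing (ticks). Values of sptb and the long ank1a model lie on both sides of 0, and those of the other models stay on 1 side.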

How the data were processed

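The authors deposited 1 table of FPKM values with gene length and position, a column per library. The build was GRCz11 and the tools were HISAT2 2.0.5, FastQC, DESeq2 and featureCounts, per the submitters' processing notes. Strand setting, filters and annotation release are not stated there, so reads of overlapping or antisense genes cannot be told apart. No sequence is shown, since none was used here.

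Reads were recovered from FPKM times gene length, which came out whole in units of each library's smallest step (tolerance 1e-06) for 100% of values above 0. The main test was limma 3.58.1 (R 4.3.3) with a variance trend on log2(FPKM + 0.5) for genes averaging 0.5 FPKM or more, two-sided, with Benjamini-Hochberg adjustment over all genes tested. The added 0.5 understates changes of low genes.

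The genes, lists and tests were chosen with earlier results of these data known. Named genes were the 8 symbols, list genes whose genotypes were apart, and the nearest profiles among named genes of at least 1 FPKM. Others were named after their values were seen. Each of 17 alternatives changed 1 choice: pseudocount, filter, scaling, variance model, voom, replicate block, weights, or libraries left out.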

Additional observations from a re-analysis of the deposited data

How the results depend on the processing

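Depth limits the low genes most, with 48 to 95 reads of xk per library. Each gene other than sptb and the long ank1a model kept its direction in all alternatives that could test it. With a filter at a mean of 5 FPKM, xk, epb41b and the long ank1a model were not tested. The number of genes passing was 2 higher with that filter, 1 higher and 1 lower with quantile normalization, 2295 higher and 2554 lower with library weights, and 2183 higher and 2246 lower without wild-type library 1 and mutant library 2. Of the 9 models, 3 passed as lower in each of the last 2 fits, and 1 passed as higher with weights. With weights the log2 fold changes were -0.44 for rhag, -0.47 for add2, 0.46 for xk and -0.78 for hdr, and without the 2 libraries -0.44, -0.45 for add2 and -0.70 for hdr. Over alternatives the limma adjusted p ranged from 0.0134 to 1 for rhag, 0.027 to 1 for add2, 0.0396 to 1 for xk and 0.0156 to 1 for hdr. Leaving out 1 library at a time, log2 fold changes of sptb ranged from -0.061 (without mutant library 3) to 0.26, and were -0.01 without mutant library 1. They ranged from -0.18 to 0.32 for the long ank1a model, with -0.01 without mutant library 1, -0.37 to -0.11 for rhag, -0.72 to -0.37 for hdr and -0.47 to -0.15 for add2, the median of the 9 models ranged from -0.25 to -0.13, and 6 to 8 models had lower means. Deviations of same-numbered libraries from their genotype means correlated across genes at 0.05, 0.01 and 0.11. Differently numbered libraries were not compared in this way, so a pairing by replicate number was not tested. With the replicate block 0 genes passed and the log2 fold changes were unchanged, for example -0.21 for slc4a1a. Median-of-ratios scaling gave nearly the deposited scaling again and is no separate support.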
